A study of Mus musculus with 8 samples.

Results

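The unstimulated CD8 central memory T cells (Tcm) of the study were the 229 cells that its cell table labels CD8 and Tcm in the 4 libraries of unstimulated T cells. They were 229 of the 12846 cells of all 8 libraries, and 229 of the 1699 unstimulated cells labelled CD8, which otherwise were 1470 CD8 Naive cells. All 229 came from 1 cluster. The study asked how loss of succinate dehydrogenase subunit A (SDHA) changes T cells, and this comparison addressed which of these changes the CD8 Tcm cells carried, beside the CD8 Naive cells of the same libraries.

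T cells were isolated from spleens by magnetic separation, kept in medium without stimulating antibodies, freed of dead cells and profiled as single cells from the 3′ ends of their transcripts. The WT group was described by the labels only as WT. The SDHA-KO group, called KO from here on, came from Sdha fl/fl CD4-Cre mice, in which Cre is made under control of the Cd4 promoter, and the study's mice were 8 to 12 weeks old. Each group had 2 libraries. Whether the 2 libraries of a group came from separate mice is not given in the sources used here, so the p values below measure the spread between these libraries, which may be technical.

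The Tcm cells numbered 55 and 54 in the WT libraries and 69 and 51 in the KO libraries, and their summed transcripts, counted as unique molecular identifiers (UMIs), came to 659964 and 651940 in WT and 899299 and 560772 in KO. The CD8 Naive sums were larger, from 2740837 to 4746979 UMIs over 256 to 503 cells. A Tcm cell held a median of 11695 and 11836 UMIs in WT and 12040 and 10402 in KO, with 2820 to 2957 detected genes and 3.8% to 4.25% of UMIs from mitochondrially encoded genes. The 4 medians overlapped between the groups. No 2 Tcm libraries shared a cell barcode.

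As background, central memory CD8 T cells are antigen-experienced or memory-like cells that keep the lymph node homing receptors of naive cells and respond faster on a second encounter. They carry CD44, the interleukin-2 and interleukin-15 receptor chain CD122 (Il2rb), the transcription factor Eomes and, in mice, the surface protein Ly6C (Ly6c2). SDHA is the catalytic subunit of succinate dehydrogenase, which oxidizes succinate in the tricarboxylic acid (TCA) cycle and is complex II of the respiratory chain. CD4-Cre becomes active in thymocytes that bear both CD4 and CD8, a stage that most T cells with an αβ receptor pass through. T cells with a γδ receptor do not pass through it, and many of them make neither CD4 nor CD8β.

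Among cells labelled CD8 Tcm, most WT cells and a minority of KO cells held CD8 coreceptor transcripts without δ receptor transcripts. Cells were sorted by whether they held at least 1 UMI of Cd8a or Cd8b1, the chains of the CD8 coreceptor, and at least 1 UMI of Trdc, the constant region of the δ receptor chain. In WT, 46 of 55 and 43 of 54 cells (83.6% and 79.6%) held a Cd8 UMI and no Trdc UMI. In KO, 11 of 69 and 11 of 51 cells (15.9% and 21.6%) did. The WT and KO libraries did not overlap. Trdc without Cd8 was seen in 5 and 6 WT cells (9.09% and 11.1%) and in 25 and 27 KO cells (36.2% and 52.9%). A further 24 cells of KO replicate 1 (34.8%) and 6 of KO replicate 2 (11.8%) held both, against 0 and 1 in WT. The KO libraries thus differed from each other in the cells that held both, and were alike in having a majority of cells with Trdc. A Cd8 UMI, with or without Trdc, was held by 83.6% and 81.5% of WT cells and 50.7% and 33.3% of KO cells. A cell without a UMI of a gene may still express it.

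**Figure D1:**
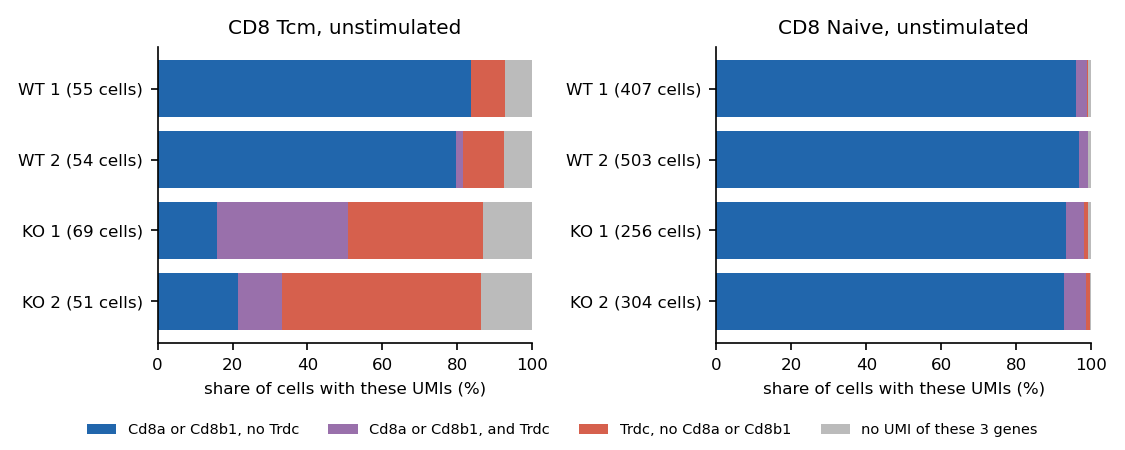
Share of cells (percent, x axis) with UMIs of Cd8a or Cd8b1, of Trdc, of both or of neither, per unstimulated library, for CD8 Tcm cells (left) and CD8 Naive cells (right). In the 2 KO Tcm libraries 15.9% and 21.6% of cells held Cd8 UMIs without Trdc, against 83.6% and 79.6% in WT. The Naive libraries were closer to each other, with 93.4% and 92.8% in KO and 96.1% and 96.8% in WT.

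Counting every cell with a Trdc UMI, the shares were 9.09% (exact 95% binomial interval 3.02% to 20%) and 13.0% (5.37% to 24.9%) in WT, and 71.0% (58.8% to 81.3%) and 64.7% (50.1% to 77.6%) in KO. These intervals and those below cover counting error only. In CD8 Naive cells, which should lack the gene, the shares were 3.19% and 2.39% in WT and 5.86% and 6.91% in KO, at median depths of 8502 to 10271 UMIs per cell. With every Tcm cell thinned to 3000 UMIs, the shares were 9.09% and 9.26% in WT and 60.9% and 56.9% in KO, still apart. The Tcm share in KO was above that of Naive cells of the same libraries, and free RNA was not measured.

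Other genes of the γδ receptor moved with Trdc. At least 1 UMI of a Tcrg-C gene, a constant region of the γ chain, was present in 18.2% and 24.1% of WT and in 63.8% and 64.7% of KO Tcm cells, and Trac, the constant region of the α chain, in 89.1% and 87.0% of WT and in 59.4% and 52.9% of KO cells. Of the Tcm cells with Trdc and no Cd8, 5 of 5 and 6 of 6 in WT and 23 of 25 and 26 of 27 in KO also held a Tcrg-C UMI, while 2, 1, 6 and 6 of them held a Trac UMI. Of the 24 cells of KO replicate 1 with both Cd8 and Trdc, 14 held a Tcrg-C UMI and 17 a Trac UMI. Their median of 13822 UMIs lay between that of the cells with Cd8 alone (15092) and with Trdc alone (10260). No doublet caller was run, and the part of doublets in these 24 cells was not tested. Cd4 UMIs were seen in 1, 0, 5 and 1 Tcm cells.

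Summed over the 15 γδ T cell markers measured, the unscaled level was 148 and 202 CPM in WT (UMIs counted relative to the total UMIs of a sum) and 954 and 1140 in KO, with 5 or 6 of the 15 at 0 in WT and 3 and 2 in KO. Of the other lineages, the sums of B cell markers lay apart, at 144 and 175 in WT and 130 and 136 in KO, and the rest overlapped between the groups. Natural killer (NK) cell markers summed to 495 to 533 CPM over the 4 libraries, a sum that includes Cd3e, itself at 373 to 407, and Ncr1, a defining NK cell gene, was at 0 in all 4. Sums of NKT and MAIT cell markers ran from 90.5 to 132, of myeloid markers from 86.4 to 132 and of red cell and platelet markers from 0 to 11.1. CD4 lineage markers summed to 277 and 192 in WT and 238 and 487 in KO.

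Because the label and the receptor genes disagree in KO, the main results between the genotypes are given for all cells labelled CD8 Tcm and again for strict CD8 cells, which held at least 1 Cd8a or Cd8b1 UMI and no UMI of Cd4 or Trdc. There were 46 and 43 strict Tcm cells in WT, with 588021 and 553107 UMIs, and 10 and 11 in KO, with 148792 and 138202 UMIs. The levels of Cd8a, Cd8b1 and Trdc in strict cells are set in part by this choice.

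The share of CD8 cells labelled Tcm was higher in KO than in WT, and turned when the strict definition was used. It was 11.9% (9.10% to 15.2%) and 9.69% (7.37% to 12.5%) in WT and 21.2% (16.9% to 26.1%) and 14.4% (10.9% to 18.5%) in KO, or 10.8% ± 1.56 against 17.8% ± 4.85 (SD, n = 2 each). The groups did not overlap. Of strict CD8 cells, 10.6% and 8.17% were Tcm in WT and 4.15% and 3.82% in KO, or 9.37% ± 1.70 against 3.98% ± 0.233, and again the groups did not overlap, in the opposite order. Of all unstimulated T cells, Tcm cells with Cd8 and no Trdc made up 3.30% and 2.85% in WT and 0.763% and 0.659% in KO, and Tcm cells with Trdc and no Cd8 made up 0.358% and 0.398% in WT and 1.73% and 1.62% in KO. The smallest two-sided p that an exact permutation test of such a share allows for 2 and 2 libraries is 0.33, so these differences are given without a test.

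The Tcm cells differed from the Naive cells in the genes that the name implies. Levels here and below are in CPM after scaling for composition, unless they are said to be unscaled. Since the 2 subsets were separated by the expression of the same cells, the ratios between them are a description and carry no test. A gene counted as higher or lower where it differed at least 2-fold, in the same direction, in all 4 libraries, with at least 20 CPM in the higher subset. Of 5356 genes with enough UMIs, 128 (2.39%) were higher and 30 (0.56%) lower in Tcm. With strict CD8 cells in both subsets, 111 of 5420 were higher and 33 lower. Of these, 95 and 22 were among the 128 and 30. The levels that follow are those of all labelled cells unless strict cells are named. Among all 5356 the median log2 ratio was -0.03.

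Of 5 marker genes fixed to check the label, 4 were higher in Tcm. Ly6c2 stood at 782 and 886 CPM in WT Tcm and 747 and 698 in KO Tcm, against 34.4 to 181 in Naive cells. Il2rb stood at 252, 251, 359 and 224 in Tcm, in the order WT 1, WT 2, KO 1, KO 2 that is kept throughout, and at 31.3 to 44.2 in Naive cells. Cd44, the adhesion receptor that marks antigen experience, was at 108, 82.7, 67.7 and 91.7, against 5.85 to 9.86 in Naive cells. Eomes was at 64.6, 60.9, 44.8 and 72.4, against 5.41 to 12.7. In these 4 genes every Tcm library was above every Naive library, and none was called between KO and WT in Tcm cells.

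Cd8a went the other way. It stood at 156 and 201 CPM in WT Tcm, 89.6 and 74.0 in KO Tcm and 228 to 339 in Naive cells, with a mean log2 ratio of Tcm to Naive of -1.20 ± 0.38 (SD, n = 4). The order of the 4 groups was KO Tcm, WT Tcm, KO Naive, WT Naive, with no overlap.

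The measured genes that the study used to annotate subsets fell on both sides. Besides Cd44, the lymph node homing receptor Ccr7 was lower in Tcm, at 81.1, 74.9, 87.5 and 67.5 CPM against 161 to 205 in Naive cells. Tcf7, the factor that keeps T cells able to renew, was at 242 to 297 and 254 to 288. Il7r, the receptor for the survival cytokine interleukin-7, was at 595, 540, 423 and 505 against 486, 449, 242 and 256. Itga4, an integrin chain, was at 212, 134, 188 and 381 against 181 to 196.

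Chemokines and NK-type receptors were among the genes with the largest ratios. Ccl5, a chemokine stored by memory CD8 T cells, was the most abundant of them, at 3278, 3482, 5439 and 5386 CPM in Tcm and 91.9, 162, 71.7 and 37.2 in Naive cells, a mean log2 ratio of 5.73 ± 1.20. Xcl1, which attracts cross-presenting dendritic cells, stood at 65.9 to 102 in Tcm and at most 2.48 in Naive cells. The lectin-like NK-type receptors Klrc1, Klre1 and Klrk1 had mean log2 ratios of 5.72, 5.40 and 4.96, S100a6 5.21 and Ctla2a, a cathepsin inhibitor, 4.95. Tmem163 and Lrrk1 had 5.56 and 4.87. Naive levels of several of these genes were under 1 CPM, so the ratios depend on the 1 CPM added to both levels.

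**Figure D2:**
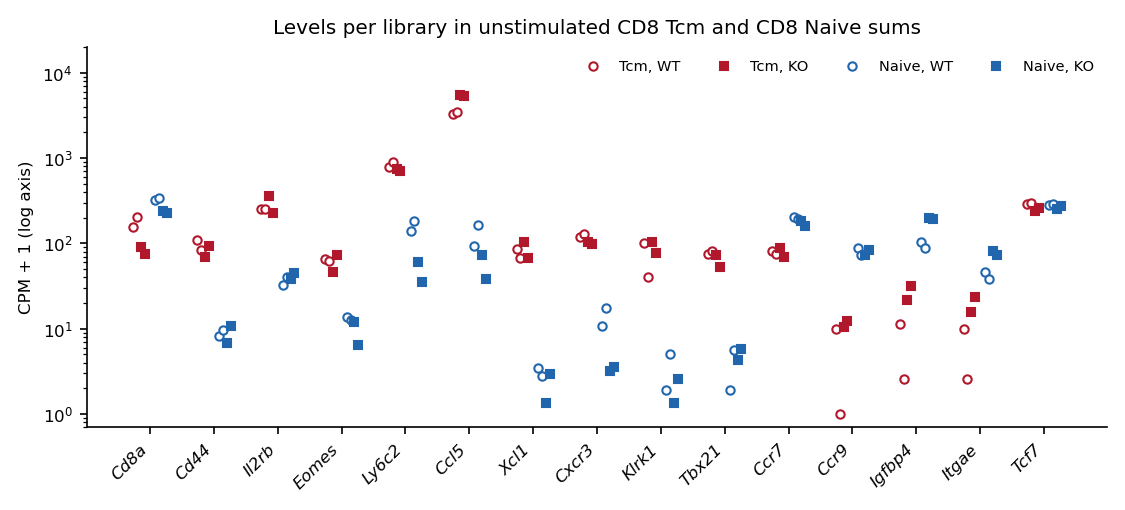
CPM plus 1 (log axis) of 15 genes in the CD8 Tcm and CD8 Naive sums of each unstimulated library, 1 point per library. Cd44, Il2rb, Eomes, Ly6c2, Ccl5, Xcl1, Cxcr3, Klrk1 and Tbx21 were higher in every Tcm library than in every Naive library, and Tcf7 overlapped.

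Lists of genes by role showed where the populations parted. Of 11 NK-type receptors with enough UMIs, out of 15 listed, 9 were higher in Tcm and 0 lower, with a median log2 ratio of 4.39. Of 5 γδ T cell markers with enough UMIs, out of 15, 5 were higher, with a median log2 ratio of 3.83. In Naive cells the 15 γδ markers summed to an unscaled 17.7 to 58.4 CPM and the 15 NK-type receptors to 142 to 249. Members of these 2 lists thus passed the 20 CPM limit largely through Tcm cells. Their counts and medians were in part set by that limit. Of 6 transcription factors of memory and effector cells, 4 were higher: Tbx21 (T-bet) at 51.5 to 81.2 CPM against 0.929 to 4.77, Eomes, Hopx at 206 to 229 against 27.8 to 73.7, and Ikzf2 at 158 to 400 against 17.3 to 83.8. In strict KO cells the unscaled Ikzf2 level was lower and nearer to that of Naive cells, at 141 and 123 in Tcm against 75.3 and 62.2. Of 20 genes of chemokine response, adhesion and homing, 6 were higher and 3 lower. Cxcr3, a receptor for interferon-induced chemokines, was among the higher at 98.1 to 128 against 2.20 to 16.7, and so was the integrin chain Itgb1 at 99.7 to 209 against 26.6 to 32.2.

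Of 14 cytokine receptors, 5 were higher and 1 lower. Both chains of the interleukin-18 receptor were among the higher, with Il18r1 at 194 to 222 CPM against 10.8 to 57.5 and Il18rap at 72.1 to 79.1 against 2.79 to 7.08. The chains of the interferon-γ receptor split. Ifngr1 was at 285 to 322 in Tcm and 96.4 to 115 in Naive cells, while Ifngr2 held at most 1.5 in Tcm and 24.7 to 31.1 in Naive cells. Of 9 cytotoxic granule genes 2 were higher, among them the granzyme Gzmm at 48.2 to 103 against 1.1 to 4.95. Prf1 (perforin) was at 35.4 to 51.5 against 11.1 to 30, and Nkg7, a granule protein, at 679 to 826 against 360 to 458, both short of 2-fold in some libraries. Ifng itself stood at 3.12 to 12.5 in Tcm, and Gzma at 1.56 to 10.4.

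Of 18 genes of the naive and quiescent state, 3 were lower in Tcm and 0 higher, with a median log2 ratio of -0.31. Lef1 was at 372 to 548 CPM in Tcm and 579 to 858 in Naive cells, Bach2 at 285 to 296 against 384 to 469, and Klf2, which drives expression of exit and homing receptors, at 510 to 637 against 684 to 822. The genes lowest relative to Naive cells were the gut-homing receptor Ccr9 (at most 11.3 against 71.4 to 87.6, mean log2 ratio -3.73 ± 1.65), Igfbp4 (-3.53), Rgcc (-3.23), Auts2 (-2.69), Ramp1 (-2.63), the integrin chain Itgae (-2.53) and St8sia1 (-2.49). Fam241a, Gm12840 and Ccr7 followed with -1.50, -1.49 and -1.24.

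Lists of metabolism genes held none that counted as higher or lower in Tcm. Of 7 measured genes of succinate dehydrogenase and its assembly, 14 other TCA cycle genes, 13 genes of glycolysis, 10 of fatty acid oxidation and 13 mitochondrially encoded genes, 0 were higher and 0 lower, with median log2 ratios from -0.12 to 0.00. None of 15 T cell receptor and coreceptor genes, 15 interferon-stimulated genes, 7 inhibitory and costimulatory receptors or 9 early response genes was higher or lower either. Over all genes 2.39% were higher and 0.56% lower. At these list sizes a count of 0 does not set a list apart from all genes. Of 10 survival genes 1 was higher. In the bulk sums, fewer cells of a type and less RNA per cell cannot be told apart.

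Sdha, the gene targeted by the knockout (chr13:74322254-74350280, GRCm38, minus strand), was lower in KO Naive cells than in WT Naive cells, and no such difference was detectable in Tcm cells. In Naive cells the unscaled level was 75.5 and 82.4 CPM in WT (265 and 391 UMIs) and 28.8 and 30.1 in KO (79 and 94 UMIs). In Tcm cells it was 83.3 (55 UMIs, exact 95% Poisson interval 62.8 to 108) and 58.3 (38 UMIs, 41.2 to 80) in WT, and 56.7 (51 UMIs, 42.2 to 74.6) and 58.8 (33 UMIs, 40.5 to 82.6) in KO. The KO Tcm libraries lay within the range of the WT Tcm libraries or just under it. Both lay above the Poisson intervals of the KO Naive libraries, which ended at 35.9 and 36.8.

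By edgeR's quasi-likelihood test with Benjamini-Hochberg adjustment, the log2 fold change of Sdha from WT to KO was -1.54 in Naive cells (SE 0.134, adjusted p = 2.73e-09) and -0.42 in Tcm cells (SE 0.242, adjusted p = 0.76). The 2 changes differed by 1.13 on the log2 scale (SE 0.273, adjusted p = 0.044 for the difference itself). Among strict CD8 cells the difference was 1.34 with SE 0.427 and an adjusted p = 0.24.

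**Figure D3:**
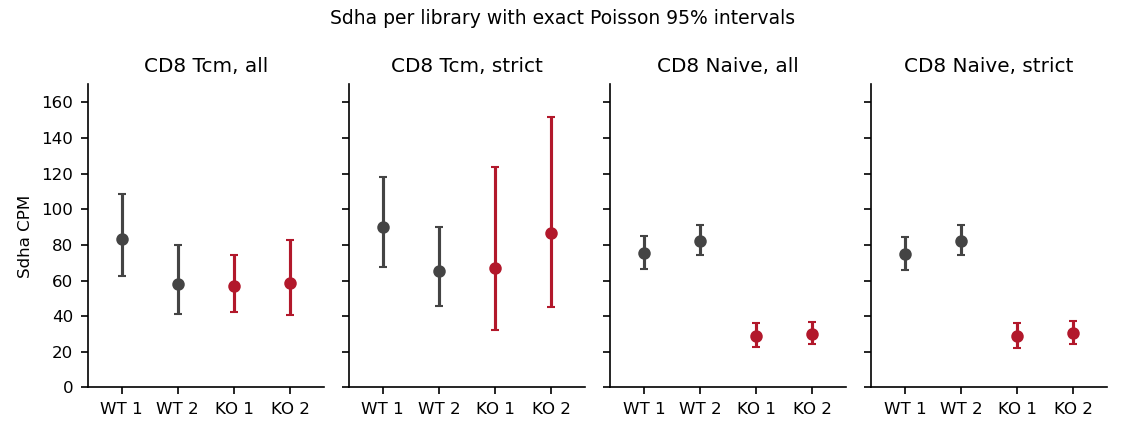
Sdha in CPM (unscaled) per unstimulated library, with exact 95% Poisson intervals, for all and strict CD8 Tcm and CD8 Naive cells. KO Naive libraries sat at 28.8 and 30.1 and KO Tcm libraries at 56.7 and 58.8, with intervals that widened to 32.2 to 124 and 44.9 to 152 in strict Tcm cells.

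Strict Tcm cells had Sdha at 90.1 and 65.1 CPM in WT (53 and 36 UMIs) and at 67.2 (10 UMIs, 32.2 to 124) and 86.8 (12 UMIs, 44.9 to 152) in KO. Pooled over libraries this was 78.0 (62.6 to 96.0) in WT and 76.7 (48.0 to 116) in KO. Split by receptor genes, the KO levels were 59.3 and 86.8 in Tcm cells with Cd8 alone, 57.9 and 31.3 in cells with both Cd8 and Trdc (23 and 2 UMIs) and 55.6 and 54.8 in cells with Trdc alone (14 and 16 UMIs). None of these values was below those of the KO Naive libraries, and the lowest rested on 2 UMIs. The lower end of the pooled strict KO interval, 48.0, was above the KO Naive levels. The sequencing reads the 3′ ends of transcripts, and whether these lie in the deleted part of the gene is not given in the sources used here. In CD4 Naive cells of the same libraries Sdha was at 92.1 and 92.7 in WT and 42.6 and 42.4 in KO, and in CD4 effector memory (Tem) cells at 97.6, 79.8, 82.8 and 78.7.

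Between KO and WT Tcm cells 31 of 6255 genes changed at an adjusted p under 0.05 (0.496% of the genes tested). Of these, 16 rose and 15 fell, and T cell receptor and NK-type receptor genes were among both. In each of the 31 the KO libraries did not overlap the WT libraries. The genes were called from the same libraries, so this separation is no further evidence for the calls. Leaving out KO replicate 1 gave 138 called genes and leaving out KO replicate 2 gave 62, fits in which the lone KO library is assumed to vary like the WT libraries. Without scaling for composition 43 were called, 28 up and 15 down. Among strict CD8 cells, which are part of the same cells, 21 of the 31 had enough UMIs for a test and none passed it. Of 4301 genes tested there, 261 had an unadjusted p under 0.05 and 1 passed the adjusted threshold. In the Naive sums 477 of 9501 genes were called (5.02%), 128 up and 349 down, and with those sums thinned to the Tcm depth of each library, 145 were called. Without WT replicate 1 or WT replicate 2 the Naive sums gave 309 and 243, with the lone WT library assumed to vary like the KO libraries.

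Of the 7 γδ markers tested, out of 15, 5 rose in KO Tcm cells and 0 fell, with a median log2 fold change of 2.20 beside 0.00 over all genes. Tcrg-C1, with 4 and 3 UMIs in WT and 41 and 27 in KO, reached the test only through the KO libraries. The count and the median thus lean in part on the filter. Trdc (chr14:54142851-54148868, plus strand) rose from 70.6 and 84.3 CPM in WT to 542 and 629 in KO, a log2 fold change of 2.91 (SE 0.181, edgeR adjusted p = 1.55e-08). Tcrg-C4 rose from 19.5 and 10.9 to 81.2 and 119, Tcrg-C2 from 13.5 and 23.4 to 91.6 and 77.2, Tcrg-C1 from 6.01 and 4.68 to 42.7 and 43.4, and the γ chain variable gene Trgv2 from 13.5 and 26.5 to 79.1 and 78.8. Gm43434, annotated on the opposite strand across the start of Trdc, rose with it from 9.01 and 9.36 to 69.8 and 83.6, and whether the counting used strand is not given in the sources used here. Some of the γ constant genes are close copies of each other, so the split of reads among those is uncertain. In Naive cells Trdc itself rose from 10.8 and 13.5 to 28.2 and 26.1, a log2 fold change of 1.14 (adjusted p = 0.00031).

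Of 15 T cell receptor and coreceptor genes, 3 fell and 0 rose. Cd8b1 fell from 583 and 531 CPM to 279 and 182, a log2 fold change of -1.25 (SE 0.174, edgeR adjusted p = 0.00072). Cd8a fell by 1.11 on the log2 scale (adjusted p = 0.010), and Trac fell from 381 and 445 to 187 and 156, or by 1.25. Cd3e, part of the receptor of both kinds of T cell, was at 392 and 379 in WT and 376 and 367 in KO. In strict cells the log2 fold changes of Cd8b1, Cd8a and Trac were -0.25, -0.06 and -0.29, with adjusted p values from 0.87 to 0.98.

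**Figure D4:**
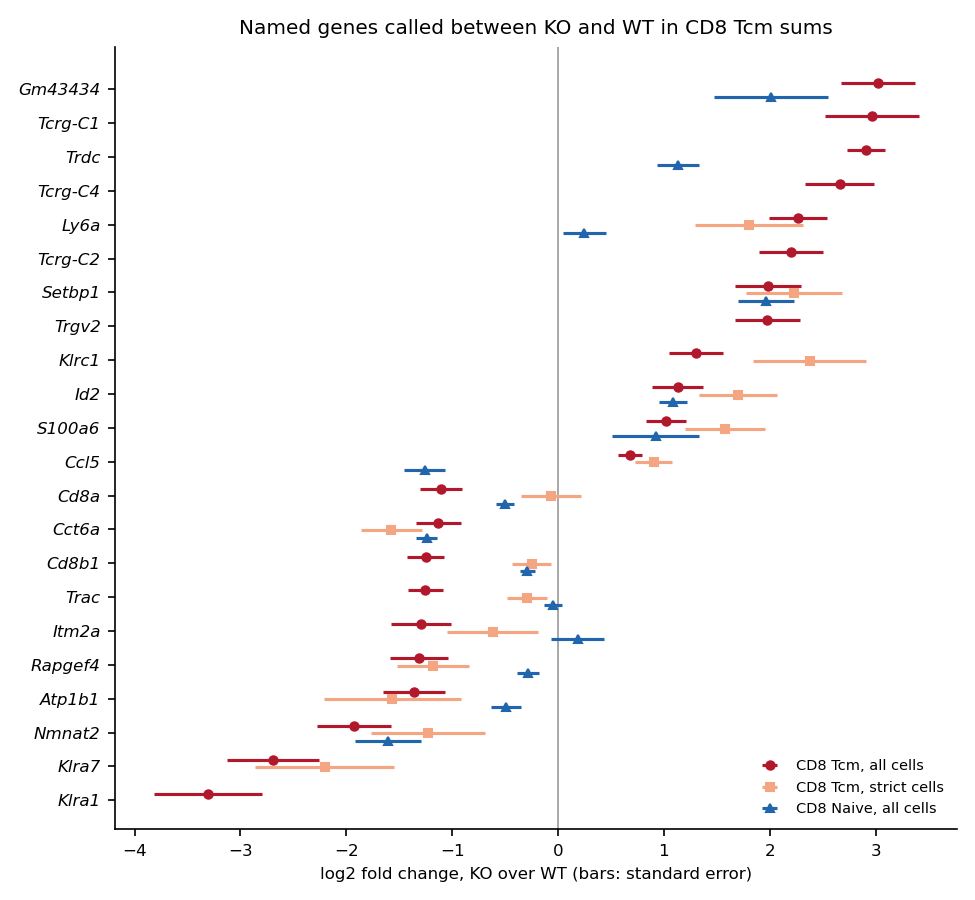
Log2 fold change from WT to KO (x axis, bars show the standard error) of named genes called in CD8 Tcm sums, for all Tcm cells, strict CD8 Tcm cells and CD8 Naive cells where tested. Trac, Cd8a and Cd8b1 sit near 0 in strict cells, while Setbp1, Id2, Klrc1, Ccl5, and Cct6a keep their direction.

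Of the inhibitory Ly49 receptors, which NK cells and memory-like CD8 T cells use to sense class I MHC, 2 fell in KO. Klra7 fell from 108 and 59.3 CPM to 5.21 and 24.1, a log2 fold change of -2.69 (SE 0.433, edgeR adjusted p = 0.0031). Klra1 fell from 67.6 and 46.8 to 9.37 and 0. In strict cells the 2 WT libraries held 72 and 33 UMIs of Klra7 and the shallower KO libraries 1 and 5. The unscaled levels were 122 and 59.7 CPM in WT and 6.72 and 36.2 in KO. Neither gene passed the test in strict cells. There Klra7 had a log2 fold change of -2.20 (edgeR adjusted p = 0.62), and the adjusted p of Klra1 was 0.34. The strict WT cells held 66 UMIs of Klra1 (unscaled 57.8 CPM, and 76.5 and 38.0 by library) and the strict KO cells 0. With 3 UMIs over the group taken as what a count of 0 allows, the KO level was at least 5.53-fold lower. This bound takes the WT level as exact. It covers counting error in KO only, not the spread between cells or libraries. That bound was 2.66-fold without KO replicate 1, 2.87-fold without KO replicate 2 and 3.63-fold without WT replicate 1. Klra6 (43.5 and 54.6 against 24.0 and 3.22) and Klra3 (51.0 and 62.4 against 33.3 and 4.82) were not called. The Ly49 genes are a family of near copies, and reads may be split among them.

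Of the receptors of the CD94 and NKG2 family, 1 was called. Klrc1 (NKG2A, an inhibitory partner of CD94) rose from 39.0 and 31.2 CPM to 95.8 and 75.6, a log2 fold change of 1.30 (SE 0.254, edgeR adjusted p = 0.019), and of 2.38 with SE 0.536 and adjusted p = 0.37 in strict cells. Klrk1, Klre1 and Klrc2 had log2 fold changes of 0.41, 0.44 and 1.02 with adjusted p values of 0.83, 0.88 and 0.33. Klrd1 (CD94) was at 366, 309, 277 and 294, a log2 fold change of -0.25 (adjusted p = 0.79). Over the 12 NK-type receptors tested, 1 rose and 2 fell, with a median of 0.11.

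Genes outside the receptors also changed. Ly6a (Sca-1), an interferon-inducible surface protein, rose from 27.0 and 15.6 CPM to 108 and 98.1, a log2 fold change of 2.27 (edgeR adjusted p = 0.00020), and of 1.81 in strict cells (adjusted p = 0.58). Ccl5 rose from 3278 and 3482 to 5439 and 5386, a log2 fold change of 0.68 (adjusted p = 0.0060). The calcium-binding protein S100a6 rose from 140 and 156 to 251 and 355, and Id2, an inhibitor of E proteins that promotes effector fates, from 63.1 and 39.0 to 124 and 98.1. In strict cells the unscaled level of Id2 was 62.9 and 32.5 in WT and 121 and 217 in KO. The strict log2 fold changes of Ccl5, S100a6 and Id2 were 0.90, 1.58 and 1.70, with adjusted p values of 0.29, 0.44 and 0.34.

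Of the 31 genes, 14 were also called in Naive cells, out of 22 that could be tested there, and 13 of the 14 changed in the same direction. Among them Setbp1 rose from 15.0 and 20.3 CPM to 77.1 and 61.1 in Tcm (log2 fold change 1.98) and by 1.97 in Naive cells. Nmnat2, an enzyme of NAD synthesis, fell by 1.92 in Tcm and 1.61 in Naive cells on the log2 scale. Cct6a, a chaperonin subunit, fell from 278 and 340 to 176 and 98.1, by 1.13 in Tcm and 1.24 in Naive cells. Id2 rose by 1.13 and 1.09. Of the 14, 12 could be tested in strict cells, where none passed, and Setbp1, Cct6a, Nmnat2 and Id2 had strict log2 fold changes of 2.23, -1.57, -1.23 and 1.70, with adjusted p values from 0.25 to 0.81.

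Some other called genes were chosen here after their values were seen. Gpr183 (EBI2), an oxysterol receptor that guides cells within the spleen, stood at 398, 315, 184 and 212 CPM, a log2 fold change of -0.86, with -1.11 in Naive and -0.83 in strict Tcm cells. Gm43647, a predicted gene, stood at 1.5, 1.56, 51.0 and 45. The 1 gene called in strict cells was Jun, an early response transcription factor, with a log2 fold change of -5.06 (edgeR adjusted p = 0.044). Strict cells held 76 and 61 UMIs of Jun in WT and 0 and 1 in KO, or 120 CPM (101 to 142) against 3.48 (0.0882 to 19.4), so the size of the fold is poorly set. It was -1.82 in cells with a Cd8 UMI and -2.71 in cells without a Trdc UMI. In all Tcm cells Jun was at 129 and 114 in WT and 53.1 and 77.2 in KO, a log2 fold change of -0.94 that did not pass (adjusted p = 0.070), and in Naive cells it fell by 1.43.

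Most lists held no called gene in Tcm cells. Of 8 genes of succinate dehydrogenase and its assembly, 15 other TCA cycle genes, 14 of glycolysis, 11 of fatty acid oxidation and 13 mitochondrially encoded genes, 0 were called, with medians from -0.27 to 0.01, where 0.496% of all genes were called. The same was true of 13 cytokine receptors, 10 cytotoxic granule genes, 10 survival genes, 9 early response genes and 17 genes of the naive state. In Naive cells 11 of the 13 mitochondrially encoded genes were called, 3 up and 8 down. The Tcm sums are shallower than the Naive sums, which lowers the number of changes that a test can find, and at these list sizes a count of 0 does not set a list apart from all genes.

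The change from WT to KO in the CD8 Tcm sums differed from that in the Naive sums in 67 of 9209 genes (0.728%). This was by a test of the difference itself, with a higher log2 fold change in Tcm in 51 and a lower one in 16. In the sums of either subset, a shift in the mix of cells and a change within cells cannot be told apart. Of the 67, 49 were called in Naive cells and 7 in Tcm cells, and 40 fell in KO Naive cells and had a higher fold change in Tcm. Of the 66 that could be tested among strict CD8 cells, which are part of the same cells, 19 were called. Without WT replicate 2, 14 genes were called.

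Several genes that were higher in Tcm than in Naive cells were among them. Ly6c2 fell in Naive cells from 138 and 181 CPM to 59.3 and 34.4, while Tcm cells had 782, 886, 747 and 698, a difference of 1.57 on the log2 scale (edgeR adjusted p = 7.92e-07). Il18r1 fell in Naive cells from 44.3 and 57.5 to 12.8 and 10.8 and stood at 222, 218, 194 and 198 in Tcm. Cxcr3 fell from 9.91 and 16.7 to 2.20 and 2.55 in Naive cells and stood at 119, 128, 104 and 98.1 in Tcm. Hopx fell from 54.2 and 73.7 to 27.8 and 31.8 in Naive cells and was at 213, 215, 229 and 206 in Tcm. In Tcm cells none of these 4 genes was called, with adjusted p values from 0.81 to 0.99.

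Ccl5 was called in opposite directions, the only gene of which this holds among those called in both subsets. It fell in Naive cells from 91.9 and 162 CPM to 71.7 and 37.2 (log2 fold change -1.26) and rose in Tcm cells (0.68). The difference was 1.92 (edgeR adjusted p = 4.29e-07), and 2.45 among strict cells, where it was also called. The strict KO Tcm libraries stood at an unscaled 4745 (4401 to 5108) and 6642 (6220 to 7086), with Poisson intervals that did not overlap. With so few libraries the strict p value is no measure of that spread and is left out. The unscaled Ccl5 level was 2923 and 2752 in WT Tcm cells with Cd8 alone, 4415 and 6642 in KO Tcm cells with Cd8 alone, and 9286 and 6151 in KO Tcm cells with Trdc alone. Both of these KO classes were above the WT cells with Cd8 alone in each library.

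Dapl1, a gene of naive and resting memory CD8 T cells, followed the same pattern from a high level in Naive cells. It fell there from 687 and 637 CPM to 165 and 148. In Tcm cells it stood at 137 and 106 in WT and 115 and 140 in KO. The difference was 2.12 (edgeR adjusted p = 8.52e-08). KO Naive cells were thus close to the level of Tcm cells. Among strict cells the difference was 2.22 and was called. The strict KO Tcm libraries stood at an unscaled 67.2 (32.2 to 124) and 232 (158 to 327), with Poisson intervals that did not overlap. As for Ccl5, the strict p value is no measure of that spread and is left out. Pde2a, a phosphodiesterase, Ctla2a and the noncoding RNAs Ifngas1 and Mirt1 had differences of 1.88, 1.82, 2.77 and 2.06, and each was also called among strict cells.

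**Figure D5:**
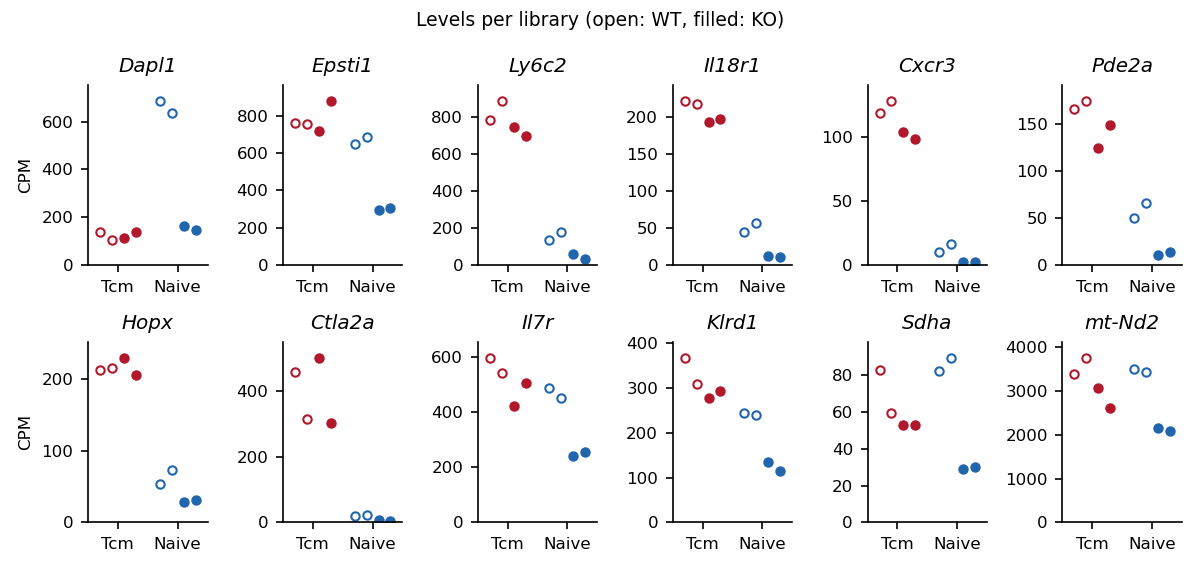
CPM of 12 genes in each unstimulated library, open points for WT and filled points for KO, with CD8 Tcm cells in red and CD8 Naive cells in blue. The 2 KO Naive libraries sit below the 2 WT Naive libraries in all 12, while the fold change between the genotypes is smaller in Tcm. The axes are linear in CPM, so this does not show as a shorter distance in every panel.

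Il7r fell in KO Naive cells from 486 and 449 CPM to 242 and 256 and was at 595, 540, 423 and 505 in Tcm, a difference of 0.61 (edgeR adjusted p = 0.0093) that was lost among strict cells (0.41, adjusted p = 0.75). Among mitochondrially encoded genes 2 had a higher and 1 a lower fold change in Tcm. The complex I subunit mt-Nd2 was at 3494, 3437, 2160 and 2076 in Naive and 3378, 3748, 3072 and 2608 in Tcm cells, a difference of 0.38 (adjusted p = 0.043), and of 0.28 among strict cells (adjusted p = 0.82). mt-Co1, of complex IV, rose in KO Naive cells and had a difference of -0.35 (adjusted p = 0.032), and of -0.58 among strict cells (adjusted p = 0.059).

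In the other direction, Trac and Cd8b1 had differences of -1.20 and -0.95, which were -0.34 and -0.05 among strict cells with adjusted p values of 0.86 and 0.99. Ly6a and Trdc had differences of 1.98 and 1.76, and that of Ly6a was 1.59 among strict cells and not called (adjusted p = 0.40). Id3, an inhibitor of E proteins linked to memory, was at 143, 137, 67.7 and 93.3 in Tcm and 61.9, 74.9, 92.2 and 71.3 in Naive cells, a difference of -1.10 (edgeR adjusted p = 0.014), and of -0.89 among strict cells (adjusted p = 0.44). Gm42047, a predicted gene, rose in KO Naive cells from 23.2 and 44.3 to 119 and 119 and was at 27.0, 45.3, 30.2 and 17.7 in Tcm, a difference of -2.35 that was called among strict cells too.

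Within the Tcm label, the cells with Cd8 alone were set beside the cells with Trdc alone. In the KO libraries, which have the most cells with Trdc, the unscaled level of Ly6c2 was 896 and 760 CPM in cells with Cd8 alone and 842 and 966 in cells with Trdc alone, Il2rb was 415 and 304 against 449 and 243, Cd44 65.3 and 86.8 against 103 and 96.0, Eomes 53.4 and 57.9 against 51.6 and 99.4, and Tbx21 77.1 and 79.6 against 107 and 48.0. The classes overlapped in Ly6c2, Il2rb, Eomes and Tbx21, and Cd44 was higher with Trdc alone in both libraries. Ikzf2 (Helios) was at 125 and 123 in KO cells with Cd8 alone and at 203 and 507 in KO cells with Trdc alone, and at 134 and 123 in WT cells with Cd8 alone. Trac was at 380 and 369 against 59.6 and 44.5, and Tcrg-C4 at 5.93 and 14.5 against 175 and 216. These are values of cells picked by their receptor genes and carry no test.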

How the data were processed

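Single-cell libraries of splenic T cells were made by the authors with Chromium 3′ chemistry, processed with bcl2fastq and Cell Ranger (version not given in the sources used here) against mm10 and merged in Seurat. Unstimulated cells with more than 6000 detected genes and clusters without CD3 were removed before the authors deposited the UMI counts of each cell, not normalized. Their cell table, also deposited, holds the percentage of mitochondrial UMIs, a CD4 to CD8 ratio on the log10 scale, and the authors' subset of each cell, which was used here, while the ratio was not. Its library codes nt and tr were read as unstimulated and stimulated, since Naive and Treg subsets occur only under nt.

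UMIs were summed per library and subset, because cells of 1 library are not replicates. edgeR 4.0.16 in R 4.3.3 was used for the filter (filterByExpr), the scaling (TMM) and the quasi-likelihood test (glmQLFit and glmQLFTest), with calls at a Benjamini-Hochberg adjusted p under 0.05. The scripts were tested on simulated data. Tcm and Naive sums were compared within libraries on the log2(CPM + 1) scale, which understates ratios of low genes. The difference of the KO effect was tested in 1 fit of all 8 sums, with an interaction of subset and genotype. DESeq2 1.42.0 was an alternative. Values per cell were computed with Python 3.11.15, numpy 2.4.6, scipy 1.17.1 and pandas 2.3.3, and plots drawn with matplotlib 3.10.9. Coordinates are those of GRCm38.

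The members and gene lists were chosen with earlier results of these data known. Genes named are the given markers, the study's annotation genes, Sdha and Trdc, then for Tcm beside Naive 10 per direction by ratio (at least 50 CPM), for the KO comparisons 10 per direction by fold change among called genes with that level and no overlap, and up to 4 extreme members of each list. Any other gene named was chosen after its values were seen. A few genes that this rule picked are not reported here. The sets of cells with a Cd8 UMI, of cells without a Trdc UMI and of strict Naive cells were added after seeing the data.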

Additional observations from a re-analysis of the deposited data

Results flagged for a closer look

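For 24 of the genes named, the change from WT to KO in CD8 Tcm cells differed from that in CD8 Naive cells by edgeR's test of the difference itself at an adjusted p under 0.05. The values that follow are the log2 change in Tcm minus the log2 change in Naive cells, with 2 libraries per genotype.

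Among genes of memory cells and their receptors, the difference was 1.57 for Ly6c2, 2.17 for Cxcr3, 1.93 for Il18r1, 1.92 for Ccl5, 0.61 for Il7r and 2.12 for Dapl1. It was 2.77 for the noncoding RNA Ifngas1, 2.06 for Mirt1, 1.88 for Pde2a, 2.33 for Gm20275 and 2.15 for the transporter Abcb1a, and 1.13 for Sdha. Among strict CD8 cells Il7r (0.41), Gm20275 (0.82), Abcb1a (1.56) and Sdha (1.34) were not called. In KO Naive cells each of these 12 genes fell.

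For receptor and surface genes, the difference was 1.76 for Trdc, 1.98 for Ly6a, -1.20 for Trac and -0.95 for Cd8b1. Trdc-bearing cells were 71.0% and 64.7% of KO Tcm cells against 9.09% and 13.0% in WT. In strict cells the differences of Ly6a, Trac and Cd8b1 were 1.59, -0.34 and -0.05, and none was called. In cells with a Cd8 UMI they were 2.26, -0.74 and -0.17, with Ly6a and Trac called, and in cells without a Trdc UMI they were 1.1, -0.47 and -0.50, with none called.

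The other 8 genes had a lower change in Tcm than in Naive cells. The difference was -2.35 for Gm42047, -1.71 for Crybg1, -1.66 for Bbc3, a BH3-only promoter of cell death, -1.40 for Gm44174, -1.10 for Id3, -0.88 for the phosphatase Ptpn6, -0.71 for Foxn3 and -0.46 for the ribosomal protein gene Rps12. Of these 8, Gm42047 was called among strict cells. Strict cells are fewer, and there the differences not called were -1.29 for Crybg1, -1.38 for Bbc3, -0.69 for Gm44174, -0.89 for Id3, -0.60 for Ptpn6, -0.50 for Foxn3 and -0.28 for Rps12.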

How the results depend on the processing

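The count of 31 genes called between KO and WT Tcm cells became 95 with no filter other than 1 UMI, 50 with sums thinned to the smallest library, 14 in a fit that added the stimulated Tcm sums, 11 in cells without a Trdc UMI and 1 in strict CD8 cells. Leaving out 1 library at a time gave 25 to 138. It was 40 with DESeq2, 43 without composition scaling (28 up and 15 down) and 33 in cells with a Cd8 UMI. DESeq2 called 4 genes up and 36 down and gave 5942 of 6255 no adjusted p, and 6 of its genes were among the 31. The count of 477 in Naive cells became 145 when thinned to the Tcm depth, and 243 to 660 with 1 library left out. The count of 67 differences between the subsets became 34 with DESeq2, 105 with no filter other than 1 UMI, 31 in strict CD8 cells, 31 with thinned sums, 43 in cells with a Cd8 UMI and 24 in cells without a Trdc UMI, and 14 to 80 with 1 library left out (14 without WT replicate 2). The causes were not tested beyond what each setting itself changes: fewer cells, fewer UMIs or fewer genes. No named gene that was called turned its direction under an alternative run.

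The replicate numbers 1 and 2 are shared between genotypes, and nothing in the labels says that they mark a mouse or a day. The differences between replicates 1 and 2 correlated by -0.07 between WT and KO Tcm sums over 3997 genes and by -0.02 in Naive sums. With the replicate block, 16 genes were called in Tcm cells, 14 of them among the 31, and 624 in Naive cells.

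The 158 genes that parted Tcm from Naive cells became 272 at 1.5-fold, 66 at 4-fold and 37 with at least 100 CPM. The share of Tcm among CD8 cells was 7.0 percentage points higher in KO, but fell by 5.39 with strict cells in numerator and denominator and was 0.159 higher among all T cells. The median UMIs of a Tcm cell differed by -544.5 from WT to KO and by 1386 in strict cells. The share of cells with Trdc was 56.8 percentage points higher in KO and 49.7 after thinning. The log2 ratio of KO to WT was 2.59 for the summed γδ markers and 1.77 for the thinned share of cells with 1 of them. At 560772 to 899299 UMIs, a gene at 20 CPM has few counts in a Tcm sum, and a change that was not called there may lie below what this depth can show.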

Other observations

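Interferon-stimulated genes had a median log2 change from WT to KO of 0.58 in Tcm cells over the 16 tested, beside 0.00 over all genes and -0.07 over the 18 tested in Naive cells. None of the 16 was called in Tcm cells by edgeR's quasi-likelihood test with adjustment over all genes. Ifit1, an antiviral RNA-binding protein, stood at 6.01 and 6.24 CPM in WT and 30.2 and 24.1 in KO Tcm (adjusted p = 0.054). Samhd1, which degrades nucleotides, stood at 108 and 131 in WT and 200 and 204 in KO (adjusted p = 0.076, and in strict cells a log2 fold change of 0.53 with adjusted p = 0.85). Ifit3 was at 22.5, 17.2, 13.5 and 65.9, and so rested on KO replicate 2.

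Trdc UMIs were also seen in CD4 cells, in values chosen after they were seen. Of CD4 Tem cells, 1 of 86 and 0 of 79 in WT and 31 of 67 and 38 of 91 in KO held one, or 1.16%, 0%, 46.3% and 41.8%. The count of 0 of 79 allows a share of cells with a Trdc UMI of up to 4.56% by an exact binomial interval, which sets no limit on cells expressing the gene. In CD4 Naive cells the shares were 3.84%, 3.14%, 4.10% and 4.93%, and in regulatory T cells 4.35%, 2.67%, 11% and 6.90%.

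Tcm cells with no UMI of Cd8a, Cd8b1 or Trdc numbered 4, 4, 9 and 7. Their unscaled level of Ikzf2 was 960, 516, 905 and 1152 CPM, against 123 to 134 in the cells with Cd8 alone of the same libraries.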
